A study of Rattus norvegicus with 48 samples.

Results

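A set of 244 genes, 1.04% of the 23481 Ensembl gene IDs counted, stood far above the usual level of rat subcutaneous fat in 3 libraries: late exercise replicates 4 and 6 and early control replicate 5. A gene was a member where its log2(CPM + 0.5) in each of the 3 lay more than 2, which is 4-fold on that scale, above its median in 22 subcutaneous libraries, and that difference is called its excess here. CPM is the count divided by the library total, scaled to the same total in every library. The 22 libraries were all of that depot except the 2 late exercise libraries, so that early control replicate 5 was among them. Genes over the same limit in both visceral early exercise replicate 3 and visceral early control replicate 5 were left out. The members were thus chosen by their own CPM in the 3 high libraries, and those values are given below as a description, without a test.

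Polyadenylated RNA had been sequenced from subcutaneous (SAT) and visceral (VAT) adipose tissue of male adolescent rats, which gave 48 libraries in 4 groups of 6 rats. Late exercise rats (LAE) and late control rats (LAC) belonged to zeitgeber time 23, near the end of the active phase, and early exercise rats (EAE) and early control rats (EAC) to zeitgeber time 13, near its start, where zeitgeber time is the number of hours after lights on. Control rats were sedentary. Fat was collected on postnatal day 61, with 24 h since the last exercise session, and strain, genotype and dissected pad were not given in the labels used. Per the labels each replicate is a rat, so the spread between replicates is that between animals. Library totals ran from 13163675 to 17890033 estimated counts, and a count of 0 in the shallowest library allowed up to 0.228 CPM.

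White fat under the skin and around the viscera stores lipid and releases hormones, and the depots differ in their blood and nerve supply and in their neighbouring tissues. A piece of fat taken whole yields RNA from adipocytes and from every other cell type in it. Many adipose genes follow the time of day, and the adipocyte clock responds to feeding and activity. In bulk tissue fewer cells of a type and less RNA per cell cannot be told apart. The IDs could not be paired with gene symbols, 0 of the members having a match in the rat gene table used here, so that the tissue label could not be checked against its markers and no marker list was applied. Members are therefore called by their rank, counted from the highest mean CPM over the 3 high libraries, and 3 of them by ID. Gene lengths were not used, so a share of counts is a share of reads and not of transcripts.

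The early control library held a small part of what was raised in the late exercise pair. In SAT LAE 4 and SAT LAE 6, 1191 and 1313 genes exceeded the limit, 5.07% and 5.59% of all IDs, and 1051 did so in both. SAT EAC 5 had 282 genes over the limit, 1.2% of the IDs. Of these, 260 were also raised in the late exercise pair, which was 24.7% of the pair's genes and 92.2% of the genes of SAT EAC 5. Of the 260, 16 were left out for their level in VAT. The smallest excess over the 3 libraries was 2.00 in the nearest pair of members inside the limit and 2.01 in the next, and it was 1.99 in each of the 3 nearest genes outside it.

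A few members carried most of the counts. The members together took 18.9% of all counts in SAT LAE 4, 11.3% in SAT LAE 6 and 5.27% in SAT EAC 5. The exact binomial interval of the share in SAT LAE 4 was 18.86% to 18.90%, at 95% and for counting error alone. ENSRNOG00000055596, the highest member, held 67.0% of the members' summed mean, the 10 highest held 87.0%, and 15 members sufficed for 90%. At the other end, 44 members averaged 100 CPM or more over the 3 libraries and 63 members averaged under 10 CPM. A library in which the members take that many counts has fewer left for all other genes, and in SAT LAE 4 this lowered the CPM of every other gene by 0.30 on the log2 scale.

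The profile was not limited to the 3 libraries that chose it. Summed over the members, 9 of the 24 SAT libraries exceeded 2000 CPM, a limit set after the sums were seen. Besides the 3, these were SAT LAE 1 and 2, SAT LAC 6, SAT EAE 2 and 6 and SAT EAC 6, that is 4 of 6 LAE rats, 1 of 6 LAC rats, 2 of 6 EAE rats and 2 of 6 EAC rats. Their sums ranged from 5662 to 188830 CPM, while the other 15 SAT libraries lay between 612 and 889 CPM, with none in between. The members' share of counts was 3.53% in SAT EAE 2, 2.97% in SAT EAC 6, 2.92% in SAT LAE 1, 1.75% in SAT EAE 6, 0.860% in SAT LAE 2 and 0.566% in SAT LAC 6. In the other 15 SAT libraries it was 0.0612% to 0.0889%. Every group of rats thus held libraries at both levels.

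**Figure D1:**
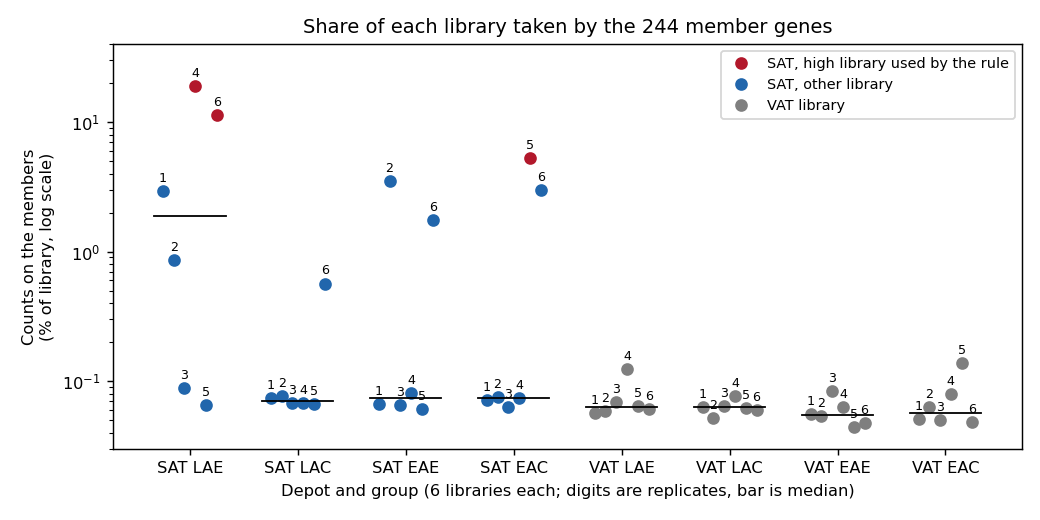
Share of each library's counts on the members (vertical axis, % of library, log scale) for the 8 groups of 6 libraries; each point is a library marked with its replicate number, the bar is the group median, and colour separates the 3 high SAT libraries of the rule, the other SAT libraries and VAT. Between 0.0889% and 0.566% no SAT library is found, and 6 libraries that the rule did not use as high lie above that gap.

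ENSRNOG00000055596 showed the same pattern on its own. It stood at 125508 CPM in SAT LAE 4, 74636 CPM in SAT LAE 6, 19056 CPM in SAT LAE 1 and 5352 CPM in SAT LAE 2, against 60.1 and 14.03 CPM in the remaining LAE rats. In the LAC group it reached 2846 CPM in replicate 6 and had a group median of 20.0 CPM. Among EAE rats it was 24746 CPM in replicate 2 and 11602 CPM in replicate 6, with a group median of 19.1 CPM. Replicates 5 and 6 of the EAC group had 37574 and 19135 CPM, with a group median of 35.4 CPM. The gap between the lowest of the 9 libraries, at 2846 CPM, and the highest of the other 15, at 60.1 CPM, was wider than the range of those 15, which began at 5.58 CPM.

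ENSRNOG00000010811, the second highest member, followed it. Its level was 8324 CPM in SAT LAE 4, 5310 CPM in SAT LAE 6, 1410 CPM in SAT LAE 1, 290 CPM in SAT LAE 2, 153 CPM in SAT LAC 6, 1065 CPM in SAT EAE 2, 568.2 CPM in SAT EAE 6, 1474 CPM in SAT EAC 5 and 821 CPM in SAT EAC 6. The other 15 SAT libraries held 0.355 to 5.18 CPM. Among the 9 libraries the ratio of the first to the second member ran from 13.5 to 18.6 in the late ones and from 20.4 to 25.5 in the early ones. That split was seen in the values and was not tested. Among the other 15 the ratio ran from 7.93 to 28.9, but it rested there on few counts of the second member, 5 in SAT LAC 5. In SAT LAE 3, the highest of the 15 by their sum, the second member was at 5.18 CPM and the first at 60.1 CPM, the highest of the 15 in each case.

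**Figure D2:**
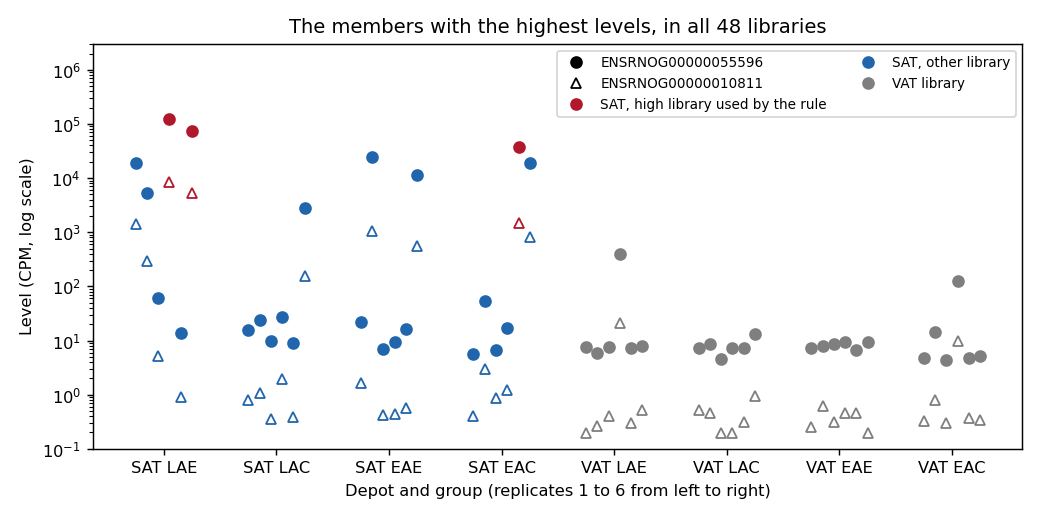
Level (CPM, log scale) of ENSRNOG00000055596 (circles) and ENSRNOG00000010811 (triangles) in all 48 libraries, by depot and group, with replicates 1 to 6 from left to right and colours for the high SAT libraries of the rule, other SAT libraries and VAT. Both genes are far up in the same 9 SAT libraries, and in VAT they stand apart in LAE 4 and EAC 4.

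The members were raised as a set in the 6 libraries that the rule had not used as high. These 6 entered the rule only through the median of the 22 libraries. They were set apart from the other 15 by the sums of these same members, so the counts below are descriptions. Over the limit of 2 were 143 members (58.6%) in SAT LAE 1, 59 (24.2%) in SAT LAE 2, 72 (29.5%) in SAT LAC 6, 182 (74.6%) in SAT EAE 2, 114 (46.7%) in SAT EAE 6 and 181 (74.2%) in SAT EAC 6. Among all genes the shares over the limit in the same libraries were 0.907% in SAT LAE 1, 0.383% in SAT LAE 2, 0.43% in SAT LAC 6, 0.95% in SAT EAE 2, 0.583% in SAT EAE 6 and 0.899% in SAT EAC 6. The other 15 SAT libraries had 0 to 4 members over the limit. Of all the genes over the limit, the members made up 67.1% in SAT LAE 1, 65.6% in SAT LAE 2, 71.3% in SAT LAC 6, 81.6% in SAT EAE 2, 83.2% in SAT EAE 6 and 85.8% in SAT EAC 6. In SAT LAE 4 and SAT LAE 6 they made up 20.5% and 18.6%.

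The median excess of the members was 4.74 in SAT LAE 4, 4.21 in SAT LAE 6 and 3.16 in SAT EAC 5. In the libraries that the rule had not used as high it was 2.74 in SAT EAC 6, 2.73 in SAT EAE 2, 2.24 in SAT LAE 1, 1.94 in SAT EAE 6, 1.35 in SAT LAC 6 and 1.02 in SAT LAE 2. Across the other 15 it lay between -0.18 and 0, and the median over all genes was 0 in each of the 24 SAT libraries. The 9 libraries thus formed a graded series and not a pair of levels. Of the members, 210 passed the limit in at least 1 of the 6 libraries, 136 in at least 3 and 47 in all 6. The 47 had a median level of 111 CPM over the 3 high libraries, and the 34 that passed in none had 5.63 CPM.

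**Figure D3:**
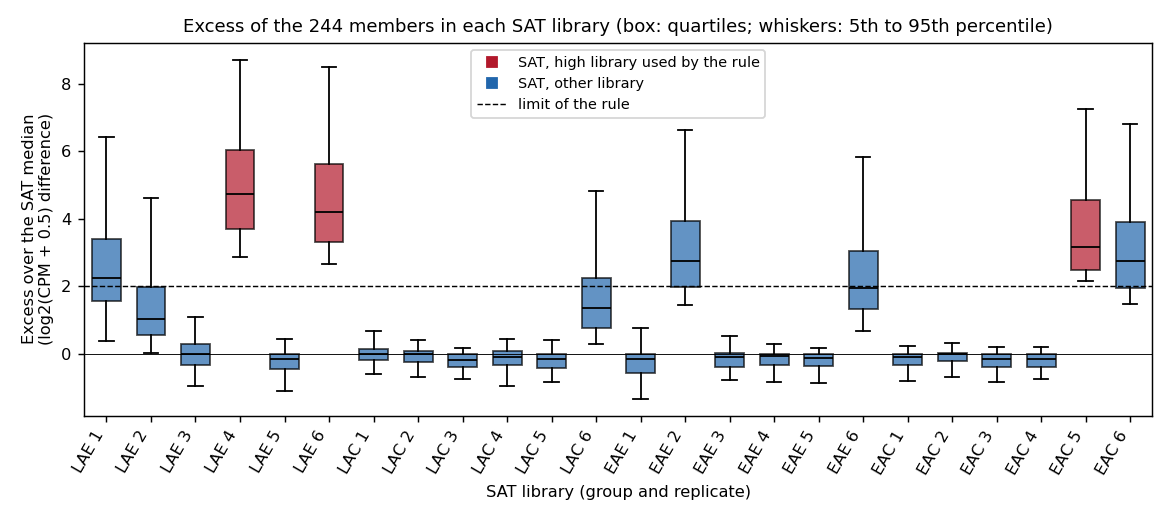
Excess of the members over the SAT median (vertical axis, difference of log2(CPM + 0.5)) in the 24 SAT libraries; boxes are quartiles, whiskers the 5th to 95th percentile of members, the dashed line is the limit of 2 and colour marks the 3 high libraries of the rule. The medians step down from 4.74 in LAE 4 to 1.02 in LAE 2, and the other 15 libraries lie around 0.

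Members with the most excess in the 3 libraries of the rule also had the most in the others. Pearson's r between the excess in a library and the mean excess over the 3 high libraries, across the members, was 0.868 to 0.957 for the 6 libraries not used as high and -0.246 to 0.385 for the other 15. Spearman's rho between any pair of the 6 was 0.684 to 0.914 over 15 pairs, and between pairs of the other 15 libraries it was -0.187 to 0.389 over 105 pairs. With the 3 libraries of the rule included, rho was 0.682 to 0.957 among the 5 late libraries, 0.894 to 0.914 among the 4 early ones and 0.684 to 0.887 between a late and an early library. These values describe points that share their libraries, their depths and 1 reference median, and members are not replicates.

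**Figure D4:**
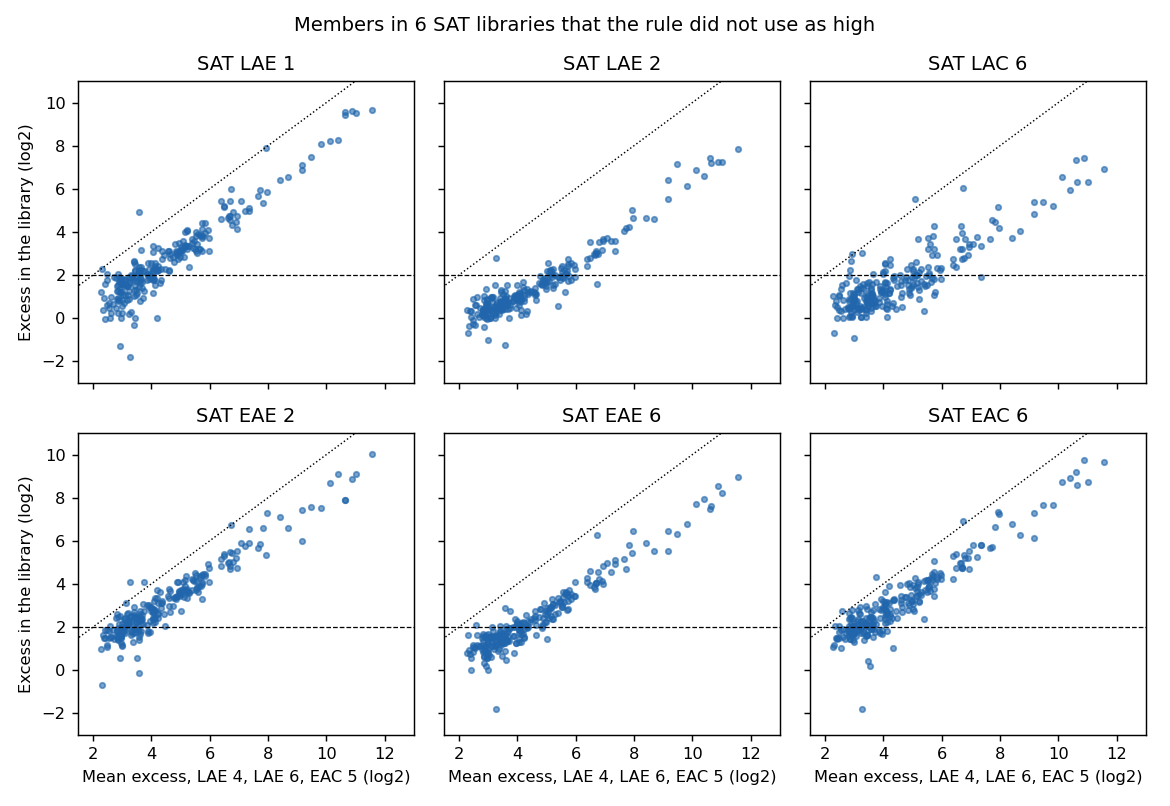
Excess of each of the members (points, log2 difference) in the 6 SAT libraries that the rule did not use as high (vertical axis) against its mean excess over SAT LAE 4, LAE 6 and EAC 5 (horizontal axis); the dashed line is the limit of 2 and the dotted line marks equal values. In all 6 panels the points rise along a band under the dotted line, with r between 0.868 and 0.957.

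The level of the profile in a library was set against that in SAT LAE 4, member by member, and its dependence on abundance was not tested. The level added to the median of the 15 low libraries, as a percentage of that added in SAT LAE 4, had a median over members of 70.1% in SAT LAE 6, 33.2% in SAT EAC 5, 22.6% in SAT EAE 2, 21.3% in SAT EAC 6, 14.5% in SAT LAE 1, 11.1% in SAT EAE 6, 5.19% in SAT LAC 6 and 4.16% in SAT LAE 2. In SAT LAE 6 98.0% of the members lay within 2-fold of that median. In SAT LAC 6 57.8% did, and in the remaining 6 libraries 75.8% to 83.2% did. The highest member had 2846 CPM in SAT LAC 6 against 125508 CPM in SAT LAE 4, a smaller share than the median of 5.19%. SAT LAC 6 therefore matched the scaled levels of SAT LAE 4 least closely, and it also had the lowest r, 0.868.

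Some members departed from the common scale. SAT LAE 4 was higher than SAT LAE 6 in 219 members and higher than SAT EAC 5 in 233. The reverse by over 2-fold, SAT EAC 5 above SAT LAE 4, was found in 4 members. Among these the 46th highest member had 26.4 CPM in SAT LAE 4 and 65.2 CPM in SAT LAE 6, against 194 CPM in SAT EAC 5, and the 129th had 10.3 and 8.74 CPM, against 48.7 CPM. At the opposite end the 11th highest member had 2003 and 1049 CPM in the late exercise pair and 59.3 CPM in SAT EAC 5, less than its 126 CPM in SAT LAE 1, 135 CPM in SAT EAE 2 and 143 CPM in SAT EAC 6. These members were singled out for their ratios after the values were seen.

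Most members were close to absent in the libraries without the profile. The median over the 15 low SAT libraries was 0 CPM for 74 members, above 0 and up to 0.5 CPM for 85, above 0.5 and up to 5 CPM for 66 and above 5 CPM for 19. Not 1 count was found in those 15 libraries for 8 members. The 19 members over 5 CPM included the highest and held 76.1% of the members' summed mean. The third highest member had 5559 CPM in SAT LAE 4, 3806 CPM in SAT LAE 6 and 1154 CPM in SAT EAC 5, against 147 to 279 CPM in the 15, and was thus read in every library of the depot. The median excess in SAT LAE 4 was 4.52 for the 74 members at 0 CPM, 5.76 for the 85, 4.17 for the 66 and 3.90 for the 19.

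**Figure D5:**
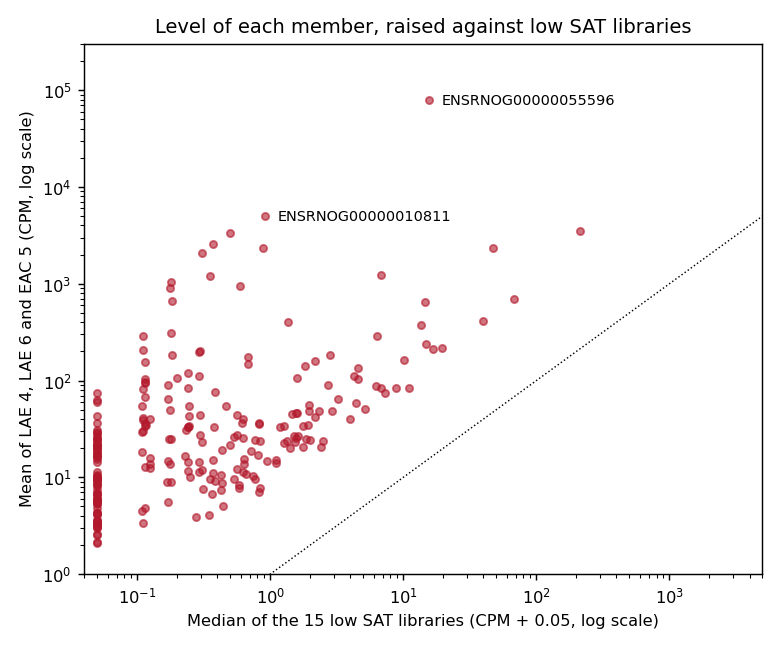
Mean level of each member in SAT LAE 4, LAE 6 and EAC 5 (vertical axis, CPM, log scale) against its median in the 15 low SAT libraries (horizontal axis, CPM + 0.05, log scale); the dotted line marks equal levels. Members at 0 CPM form the column at the left edge, and ENSRNOG00000055596 stands highest at 15.7 CPM on the horizontal axis.

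Genes over the limit in the late exercise pair but not in SAT EAC 5 had a different distribution over the libraries. These 791 genes had 3 to 15 genes (0.379% to 1.90%) over the limit in each of the 6 libraries, where all genes had 0.383% to 0.95%. Their median excess there was 0 to 0.16, against 1.02 to 2.74 for the members. In SAT LAE 3, which was low for the members, 53 of the 791 (6.7%) were over the limit, against 0.443% of all genes. In VAT EAE 3, 474 of them (59.9%) were over the limit with a median excess of 2.35, and in VAT EAC 5, 366 (46.3%) were with a median excess of 1.86, against 2.76% and 2.22% of all genes. In each of the other 22 VAT libraries 0 to 8 of the 791 were over the limit. Of the members, from which genes high in both of these VAT libraries had been taken out, 8 (3.28%) were over the limit in VAT EAE 3 and 3 (1.23%) in VAT EAC 5. Of the 16 genes taken out, 3 to 10 were over the limit in each of the 6 SAT libraries.

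In VAT the members were near the level of the low SAT libraries. They took 0.0446% to 0.137% of the counts of a VAT library. ENSRNOG00000055596 ranged from 4.299 to 14.2 CPM in 22 of the 24 VAT libraries. It stood at 401 CPM in VAT LAE 4, where the median of the LAE group was 7.60 CPM, and at 126 CPM in VAT EAC 4, where the median of the EAC group was 4.999 CPM. ENSRNOG00000010811 was at 20.7 CPM in VAT LAE 4 and 9.63 CPM in VAT EAC 4, against at most 0.926 CPM in the 22. Over the limit were 12 members in VAT LAE 4 (4.92%, against 0.175% of all genes) and 11 in VAT EAC 4 (4.51%, against 0.268%), with 8 shared, 66.7% of the 12 and 72.7% of the 11. Of these members, 11 of the 12 and 9 of the 11 were among the 20 highest by level.

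The VAT traces matched the SAT level of the same number in 1 case. SAT LAE 4 had the highest level of all libraries, and VAT LAE 4 held 0.320% of its level of ENSRNOG00000055596 and 0.249% of its level of ENSRNOG00000010811. VAT EAC 4 had 126 CPM of the first gene, while SAT EAC 4 had 16.8 CPM and was among the 15 low libraries. The VAT libraries numbered like the other 8 high SAT libraries held 4.799 to 13.2 CPM of it, within the range of the 22. The highest members' sum in VAT, 1367 CPM in VAT EAC 5, had another make-up: the 125th highest member accounted for 579 CPM of it, where the median of the 22 was 0.185 CPM, and ENSRNOG00000055596 was at 4.799 CPM.

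The next comparisons ask whether the members differed between late and early rats and between exercised and sedentary rats, without the 3 SAT libraries in which they had to be high. The rule still touched the libraries tested, through the median of the depot in SAT and through VAT EAE 3 and VAT EAC 5, in which 16 genes high in both had been taken out. edgeR's quasi-likelihood test was run on the whole table, with Benjamini-Hochberg adjustment over all genes tested and a threshold of 0.05 for a call. In VAT 85 members had enough counts to be tested and 159 had not. For exercise edgeR called no member in VAT. For LAE against LAC 0 of 85 were called by edgeR and DESeq2 and 1 by limma, with 4 at an unadjusted p under 0.05, and 0% of all genes were called by edgeR. For EAE against EAC 0 were called by edgeR, DESeq2 and limma, with 1 at an unadjusted p under 0.05, and again 0% of all genes.

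Phase, in contrast, moved members of VAT about as often as other genes. For LAE against EAE 15 of 85 were called (17.6%, against 21% of all genes tested), 9 higher (10.3% of all genes) and 6 lower (10.8% of all genes). For LAC against EAC 8 of 85 were called (9.41%, against 11.3% of all genes tested), 4 higher (5.39% of all genes) and 4 lower (5.96% of all genes). The median log2 fold change of the members tested was 0.04 for LAE against EAE and -0.01 for LAC against EAC, where that of all genes tested was -0.01 in both. In both comparisons 7 members were called, 3 higher and 4 lower in late rats each time. The share of all genes called in both is not given here, so nothing about the members as a set is read from the 7. The called folds ran from 1.401 to 4.65 in the exercised rats, apart from ENSRNOG00000055596 with 9.13, a value that rested on VAT LAE 4, and from 1.30 to 2.72 in the controls. Without VAT EAE 3, 12 members were called for LAE against EAE, and without VAT EAC 5, 10 for LAC against EAC. The shares of all genes in these fits are not given here, so the counts are set only against the 15 and the 8.

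For LAE against EAE the 5 higher members with the smallest adjusted p had log2 fold changes of 0.63 to 1.35 (edgeR adjusted p from 2.57e-05 to 0.0049). The 5 lower ones had log2 fold changes of -1.70 to -0.49 (edgeR adjusted p from 0.00107 to 0.0341). For LAC against EAC the 4 higher members had 0.38 to 1.44 (edgeR adjusted p from 0.00071 to 0.0076). The 4 lower ones had -1.34 to -0.52 (edgeR adjusted p from 0.00326 to 0.0418).

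The member with the smallest adjusted p for LAE against EAE was the 14th highest. In VAT it ranged from 125 to 192 CPM in LAE rats with a median of 151 CPM, against 62.9 to 93.9 CPM with a median of 70.4 CPM in EAE rats. The groups did not overlap, and the log2 fold change was 1.12 ± 0.16 (SE, 6 rats each, edgeR adjusted p = 2.57e-05). In LAC rats it ranged from 108 to 152 CPM with a median of 123 CPM, against 60.2 to 120 CPM with a median of 69.4 CPM in EAC rats. Those groups overlapped through VAT EAC 4, at 120 CPM, and the log2 fold change was 0.72 ± 0.16 (SE, edgeR adjusted p = 0.00412). Both calls held in all 18 alternatives run for each, with adjusted p from 3.13e-10 to 0.000122 for the exercised and from 0.000178 to 0.0136 for the sedentary rats.

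For LAC against EAC the smallest adjusted p belonged to the 87th highest member, at a low level. In VAT it ranged from 1.22 to 2.90 CPM in LAC rats with a median of 1.74 CPM, against 0.259 to 0.923 CPM with a median of 0.755 CPM in EAC rats. The groups did not overlap, and the log2 fold change was 1.44 ± 0.27 (SE, edgeR adjusted p = 0.00071). In LAE rats it ranged from 1.16 to 2.46 CPM with a median of 1.55 CPM, against 0.45 to 1.35 CPM with a median of 0.638 CPM in EAE rats, with overlap and a log2 fold change of 1.21 ± 0.26 (SE, edgeR adjusted p = 0.00206). Both calls held in all 18 alternatives run for each.

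Among the lower members of LAC against EAC the 173rd highest led. It ranged from 0.246 to 0.856 CPM in LAC rats with a median of 0.616 CPM, against 1.05 to 2.14 CPM with a median of 1.38 CPM in EAC rats. The groups did not overlap, the log2 fold change was -1.34 ± 0.29 (SE, edgeR adjusted p = 0.00326), and the call held in all 18 alternatives. For LAE against EAE it was -0.98 ± 0.29 (SE, edgeR adjusted p = 0.0188), a call that 17 of 18 alternatives kept and that ended without VAT EAE 1, at an edgeR adjusted p of 0.052.

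ENSRNOG00000019120, the 24th highest member, was also lower in late rats. It was the single member called in SAT and is named for that reason, after its values were seen. In VAT it ranged from 2.71 to 9.25 CPM in LAE rats with a median of 4.89 CPM, against 10.3 to 24.1 CPM with a median of 16.8 CPM in EAE rats. These groups did not overlap, and its log2 fold change was -1.70 ± 0.34 (SE, edgeR adjusted p = 0.00107). In LAC rats it ranged from 3.52 to 13.8 CPM with a median of 4.88 CPM, against 8.18 to 31.9 CPM with a median of 10.4 CPM in EAC rats, with overlap and a log2 fold change of -1.07 ± 0.34 (SE, edgeR adjusted p = 0.0418). Of the 18 alternatives for the sedentary rats 11 kept the call, and leaving out VAT EAC 2, at 31.9 CPM, gave -0.66 with an edgeR adjusted p of 0.170.

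ENSRNOG00000055596 was also called higher in VAT of LAE rats than of EAE rats, and this rested on 1 rat. It ranged from 5.94 to 401 CPM in LAE rats with a median of 7.60 CPM, against 6.82 to 9.55 CPM with a median of 8.42 CPM in EAE rats. The log2 fold change was 3.19 ± 1.06 (SE, edgeR adjusted p = 0.0351). Without VAT LAE 4 it was -0.11 ± 0.69 (SE, edgeR adjusted p = 0.936). Apart from that library the groups overlapped.

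In SAT the tests left out the 3 libraries of the rule, which left 4 LAE, 6 LAC, 6 EAE and 5 EAC rats and 229 members tested, and 6 of the 21 libraries still carried the profile. Of the members 113 had enough counts to be tested once these 6 were also left out, so many of the 229 entered the tests through the libraries in which they were high. Medians and counts of calls over the 229 are therefore given as descriptions only. A low count beside the share of all genes is not read as a weaker response of the members. For LAE against LAC, the exercise comparison in late rats, 0 members were called by edgeR and limma and 1 by DESeq2, against 2.1% of all genes by edgeR. There 10 members had an unadjusted p under 0.05 and the smallest edgeR adjusted p was 0.101. The median log2 fold change of the members was 1.54, where the median of all genes tested was 0.01, and the profile was present in 2 of the 4 LAE and 1 of the 6 LAC rats tested. With the 3 libraries put back, 71 of 240 members were called higher in LAE rats (7.83% of all genes were). The choice of members had favoured that count, and nothing is read from it. For EAE against EAC 0 members were called by edgeR, DESeq2 and limma, against 0% of all genes by edgeR, and 1 had an unadjusted p under 0.05. Their median log2 fold change was 0.33, where all genes had 0.00, and the profile was present in 2 of 6 EAE and 1 of 5 EAC rats tested.

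For LAC against EAC 0 of 229 members were called by edgeR and 1 each by DESeq2 and limma, where edgeR called 8.61% of all genes. The members had a median log2 fold change of -1.32, an unadjusted p under 0.05 in 6, and 0.0701 as the smallest edgeR adjusted p. Here the profile was present in 1 of 6 LAC and 1 of 5 EAC rats tested, 5662 CPM summed over the members in SAT LAC 6 and 29684 CPM in SAT EAC 6. For LAE against EAE 1 of 229 was called (0.437%, against 12.1% of all genes), ENSRNOG00000019120, which was lower in LAE rats (6.39% of all genes were). The members' median log2 fold change was -0.11 and that of all genes was 0.00.

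ENSRNOG00000019120 had 31.1, 12.8, 4.15 and 12.4 CPM in the 4 LAE rats tested, against 16.1, 118, 42.5, 36.3, 32.8 and 83.6 CPM in the 6 EAE rats. The groups overlapped through LAE 1, one of the libraries with the profile, and the log2 fold change was -1.81 ± 0.54 (SE, edgeR adjusted p = 0.0335). Without all 9 high SAT libraries, which are those with the highest sums of these same members, it was -1.86 ± 0.43 (SE, edgeR adjusted p = 0.0263), with 2 LAE and 4 EAE rats left. With the 3 libraries of the rule added it was 0.66 ± 0.72 (SE, edgeR adjusted p = 0.549). The call also ended with limma, with a replicate block, and without LAE 2, LAE 3, LAE 5, EAE 2 or EAE 6, at edgeR adjusted p from 0.0636 to 0.102 for these left-out libraries.

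In SAT the 14th highest member ranged from 94.4 to 1001 CPM in LAE rats with a median of 196 CPM, against 44.3 to 235 CPM with a median of 62.7 CPM in EAE rats. It ranged from 78.7 to 130 CPM in LAC rats with a median of 92.1 CPM, against 49.0 to 393 CPM with a median of 62.1 CPM in EAC rats. The highest values, 1001 and 393 CPM, were those of LAE 4 and EAC 5, which the rule used, and the ranges overlapped in both comparisons. It was not called in SAT, with a log2 fold change of 0.63 ± 0.47 for LAE against EAE (SE, edgeR adjusted p = 0.427) and -0.04 ± 0.45 for LAC against EAC (SE, edgeR adjusted p = 0.977). The 15 low libraries were set apart by the sums of these same members, so counts over them are descriptions. There 5 of 113 members tested were called for LAE against EAE, 2 higher and 3 lower, against 4.18% of all genes. For LAC against EAC 1 was called, against 3.79% of all genes.

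Between the depots of sedentary rats, 144 of 232 members were called (62.1%, against 46.7% of all genes), 142 higher in SAT (22.2% of all genes) and 2 lower in SAT (24.5% of all genes). The choice of members favoured this direction, since they were chosen as high in SAT and genes high in both of the VAT libraries of the rule were taken out. Without the 9 high SAT libraries 138 members had enough counts to be tested, so part of the 232 entered the test through libraries in which they were high. Nothing about the members as a set is read from these counts. ENSRNOG00000055596 averaged 2014 ± 5741 CPM in 11 SAT libraries and 17.3 ± 34.4 CPM in 12 VAT libraries (SD), with a log2 fold change of 6.41 ± 1.53 (SE). In both depots the SD exceeded the mean, with SAT EAC 6 at 19135 CPM and SAT LAC 6 at 2846 CPM, and with VAT EAC 4 at 126 CPM. ENSRNOG00000010811 averaged 89.4 ± 247 CPM in SAT and 1.20 ± 2.67 CPM in VAT (SD), with a log2 fold change of 6.01 ± 1.51 (SE). It had too few counts for the tests within VAT. Both genes were chosen as high in SAT, so these differences are descriptions. With the rat as a block 77 of the 232 members were called, against 49.6% of all genes in either direction, and 70 were higher and 7 lower in SAT. The 2 highest members were called without the block but not with it, at edgeR adjusted p of 0.416 for ENSRNOG00000055596 and 0.0587 for ENSRNOG00000010811.

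The count between depots depended on SAT EAC 6 and SAT LAC 6. Without SAT EAC 6 36 members were called, 22 higher and 14 lower in SAT, and without SAT LAC 6 54 were called, 48 higher and 6 lower. The shares of all genes called in these fits are not given here, so the counts are set only against those of the main fit. With none of the 9 high SAT libraries, left out for their sums of these members, 46 of 138 members tested were called, 21 higher and 25 lower in SAT, against 44.3% of all genes. The smallest adjusted p belonged to the 71st highest member. It ranged from 1.29 to 13.4 CPM in SAT with a median of 2.26 CPM, against 0.0647 to 0.852 CPM in VAT with a median of 0.38 CPM. The depots did not overlap, and the log2 fold change was 3.30 ± 0.43 (SE, 11 SAT and 12 VAT libraries). This member had too few counts for the tests within VAT. The 5 higher members with the smallest adjusted p had log2 fold changes of 1.57 to 7.42. The choice of members favoured this direction, so these values are descriptions. Of the 2 lower members the one with the smaller adjusted p, the 67th highest, ranged from 0 to 13.0 CPM in SAT with a median of 0.0614 CPM, against 1.03 to 13.0 CPM in VAT with a median of 6.79 CPM. Its depots overlapped, and the log2 fold change was -2.50 ± 0.82 (SE, edgeR adjusted p = 0.0112), a call that ended with the libraries of the rule added, at an edgeR adjusted p of 0.0569. ENSRNOG00000019120 stayed higher in SAT under all 31 alternatives, with a log2 fold change of 0.99 to 1.51, a direction that the choice of members also favoured.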

How the data were processed

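The table deposited by the authors gives estimated counts, all of them whole, for 23481 Ensembl IDs in 48 libraries. The submitters' processing notes list Salmon 1.4.0 and the genome build rn6, and the annotation release was not given in the sources used here. Per the labels' protocols, RNA of an integrity number above 9 was read as single ends of 50 nt. Each column carries a library name found in the labels, and 0 columns lacked a sample. The members, the lists and the tests were chosen with earlier results of these data known.

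CPM values use column totals. The tests used edgeR 4.0.16 under R 4.3.3 (TMM, filterByExpr, quasi-likelihood fits of the 4 groups of a depot or of the 8 groups, Benjamini-Hochberg adjustment over all genes tested, threshold 0.05). SAT fits left out the 3 libraries of the rule. SE was taken as the size of the log2 fold change divided by the root of the F statistic. Scripts were tested on simulated data. Alternatives were DESeq2 1.42.0 (size factors, Wald test), limma 3.58.1 voom with quality weights, no filter beyond 1 count, a replicate block, adding or leaving out the libraries of the rule, leaving out each library, and other limits and pseudocounts of the rule. Leaving out all 9 high SAT libraries was added after seeing the data.

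Replicate numbers were read as naming the same rat in both depots, since per the labels both depots came from the 6 rats of a group. Deviations from the group means correlated over 0.1 in 15 of 24 such pairs, with a median of 0.116. Within a depot equal numbers name different rats, and such pairs exceeded 0.1 in 11 of 24 cases in SAT and 6 of 24 in VAT. SAT and VAT libraries of unequal number were not compared, so the reading of the numbers was not tested. The rule for named genes was to print the 2 highest members and any member called where 5 or fewer were, and, for larger counts, the 5 with the smallest adjusted p in each direction, given here as ranges with the first of each described. The marker lists planned for this work were not used, for want of symbols.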

Additional observations from a re-analysis of the deposited data

Results flagged for a closer look

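For each group of 6 libraries the gap between the most extreme library and its neighbour was set against the whole range by Dixon's criterion, for 3 measures in 8 groups. Of these 24 tests 9 marked a library. The 3 measures share the same members and rise together, and SAT LAE and SAT EAC hold the libraries of the rule. The count of 9 is therefore not set against a chance rate. SAT LAC 6 stood apart in all 3 measures, with 0.566% of its counts on the members against 0.0764% in the next LAC library, 2846 CPM of ENSRNOG00000055596 against 27.2 CPM, and 153 CPM of ENSRNOG00000010811 against 1.93 CPM. VAT LAE 4 did so as well, with 0.125% of counts against 0.0691%, 401 CPM of ENSRNOG00000055596 against 8.02 CPM, and 20.7 CPM of ENSRNOG00000010811 against 0.518 CPM. VAT EAC 4 stood apart in both genes, with 126 CPM against 14.2 CPM and 9.63 CPM against 0.795 CPM. VAT EAC 5 was marked for its share of counts alone, 0.137% against 0.0800%, and there the 125th highest member held 579 CPM. SAT LAE, EAE and EAC, in which 2 or more rats carried the profile, had no library marked by this criterion.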

How the results depend on the processing

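With a limit of 3 the rule gave 135 members, 130 of them among those described. With a limit of 1.5 it gave 333, with a pseudocount of 1 CPM 189, with TMM library sizes 244 (241 shared) and with the VAT genes kept 260, and 9 SAT libraries exceeded 2000 CPM under each of these 5 alternatives. Of 178 alternative counts of members 153 stayed within 1.5 times the count first given and 25 did not. The shares of all genes called in these fits are not given in this section, so the counts are set only against those of the main fits. For LAC against EAC in SAT, with 0 calls, DESeq2 gave 1, limma 1 and leaving out the 9 high libraries 1. For LAE against EAE in SAT, with 1 call, limma gave 0, the replicate block 0, adding the libraries of the rule 5 and leaving out the 9 high libraries 5. For LAE against LAC in SAT, with 0 calls, DESeq2 gave 1, the replicate block 2 and adding the libraries of the rule 71. Counts in SAT with the libraries of the rule added rest on values that chose the members. In VAT limma gave 1 for LAE against LAC. Between depots, with 144 calls, limma gave 47, the rat as a replicate block 77 and leaving out the 9 high libraries 46. Leaving out 1 library at a time gave 36 to 154 calls between depots, 5 to 10 for LAC against EAC and 12 to 17 for LAE against EAE in VAT, 0 to 1 for LAE against EAE and for LAE against LAC in SAT, and 0 in the other comparisons. The 5 calls for LAC against EAC in VAT came without LAC 1 or LAC 3, the 1 for LAE against LAC in SAT without LAC 5, and the 0 for LAE against EAE in SAT without LAE 2, 3 or 5 or EAE 2 or 6.

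Of 750 alternative log2 fold changes of the 8 members described by test, 3 changed sign with a call. ENSRNOG00000055596 went to -0.11 in VAT for LAE against EAE without VAT LAE 4, with a range from -0.11 to 3.43 over the left-out libraries. ENSRNOG00000019120 went to 0.66 in SAT for LAE against EAE with the libraries of the rule added. The 14th highest member went to 0.62 in SAT for LAC against EAC without the 9 high libraries, which were picked by the members' sums. Other fold changes changed sign without a call. In SAT ENSRNOG00000055596 ran from -7.90 to 4.51 for LAC against EAC, -0.82 to 8.24 for EAE against EAC and -1.70 to 4.02 for LAE against EAE. ENSRNOG00000010811 ran from -7.58 to 4.21, -0.75 to 7.67 and -1.42 to 3.72 in the same comparisons. Their direction in SAT was thus not stable there. The cause was not tested. Within a depot equal replicate numbers name different rats, and the block with them changed no count in VAT by over 1.5 times. In the 15 low SAT libraries, where 74 members had a median of 0 CPM, many members lay near the reach of these depths. In the shallowest of the 15, 0 counts allow up to 0.227 CPM. Over the 3 high libraries the lowest mean of a member was 2.09 CPM, above that reach.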
